A study of Mus musculus with 4 samples.

Results

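This account covers 37 mouse genes of red blood cells, hemoglobin and heme synthesis, read in RNA from the cranial neural tube at embryonic day 10.5. The genes were taken from a list by symbol in the deposited count table, and all 37 had at least 20 counts summed over the 4 libraries, out of 54532 genes in the table. They were split by where they are used. There were 22 red-cell genes, 6 heme enzymes that nearly all cells use, and 9 members shared between red cells and other cells.

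Hemoglobin is built from alpha-type and beta-type globin chains, each holding a heme group. At midgestation most circulating red cells are primitive erythroid cells from the yolk sac, which use the embryonic globins Hba-x, Hbb-bh1 and Hbb-y, and which also reach the vessels around the brain. Heme is made in a chain of enzymes: Alas2 catalyses the entry step in red cells only, while the later steps are carried out by the same enzymes in all tissues. The neural tube is not a site of red-cell formation, and blood reaches dissected tissue in its vessels.

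The DCKO group had 2 embryos that were flox/flox at Lats1, likewise flox/flox at Lats2, and carried the Cre transgene E2f1 Tg(Wnt1-cre)2Sor/+. The Control group had 2 embryos without that transgene, and the labels do not state whether they carried floxed alleles. Each library was made from 1 embryo. Lats1 and Lats2 are kinases of the Hippo pathway, and Wnt1 sequences drive Cre in the dorsal neural tube and neural crest, so unrecombined cells, red cells among them, share the dissected tissue. Tests over 2 embryos against 2 measure the spread between these embryos alone.

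Library totals were between 41798361 and 55137810 counts. A floor of 3 counts corresponded to 0.0479 to 0.0812 CPM, the usual depth-scaled counts, with totals scaled by the trimmed mean of M values (TMM). Reads of the chromosome 17 ribosomal RNA cluster made up 13.2% and 12.4% of each Control library but 24.7% and 30.3% of the DCKO libraries. Lats1 was at 44.2 and 65.6 CPM in Control and at 30.02 and 29.7 CPM in DCKO, and its log2 fold change of -0.88 had an SE of 0.23 and an edgeR adjusted p of 0.0538. Lats2 was at 26.7 and 13.3 CPM in Control and at 21.2 and 35.3 CPM in DCKO, and whole-gene counts do not show whether the floxed exons were lost. Xist held 10837 and 7786 counts in Control embryos but 8 and 22 in DCKO embryos, so embryo sex and genotype cannot be told apart, which touches the X-linked members Alas2 and Gata1.

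Many red-cell genes were lower in DCKO, and no heme enzyme passed the test. Of the 36 members with enough counts to test, 15 were lower in DCKO and 0 were higher by the edgeR quasi-likelihood test at an adjusted p under 0.05, where 8.11% of all 19207 tested genes were lower and 8.93% were higher. The 0 members higher stayed at 0 at an unadjusted p under 0.05, and DESeq2 and limma-voom also called 0 higher. The call of lower was made for 10 of 21 tested red-cell genes, 5 of 9 shared members and 0 of 6 heme enzymes. Median log2 fold changes, DCKO against Control, were -2.07 for the red-cell genes, -0.95 for the shared members and -0.39 for the heme enzymes, beside 0.03 for all tested genes. Both DCKO libraries lay below both Control libraries for 19 of 22 red-cell genes, 7 of 9 shared members and 5 of 6 heme enzymes, against 32.9% of all tested genes. In bulk tissue, fewer red cells and less RNA per red cell cannot be told apart.

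Summed counts showed the same split within each library. The 22 red-cell genes together took 0.297% and 0.433% of the Control totals and 0.0814% and 0.0595% of the DCKO totals. For the 6 heme enzymes the shares were 0.0164% and 0.0170% of the Control totals and 0.00964% and 0.0116% of those of DCKO. These totals hold the ribosomal RNA cluster. Without it the red-cell shares were 0.342% and 0.494% in Control and 0.108% and 0.0853% in DCKO. Those of the heme enzymes were then 0.0190% and 0.0194% in Control and 0.0128% and 0.0167% in DCKO. The heme enzyme difference of group means shrank from -0.0061 to -0.0044 percentage points, and to -0.0028 with TMM-scaled totals. For each count of the heme enzymes there were 18.04 and 25.5 counts of red-cell genes in the Control libraries and 8.44 and 5.12 in the DCKO libraries. The 2 groups did not overlap in this ratio, which does not depend on how libraries are scaled, and the exact permutation p of 0.3333 is the smallest that 2 against 2 libraries allow. With the globins left out, the ratio was 0.604 and 0.738 in Control and 0.246 and 0.175 in DCKO.

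How many members passed the test depended on single libraries. Without Control 1 there were 6 members lower, without Control 2 there were 2, without DCKO 1 there were 23 and without DCKO 2 there were 19. For the red-cell genes alone, these counts were 6, 2, 16 and 12, and for the shared members 0, 0, 7 and 6. The share of all tested genes called lower moved with them, to 0.673%, 0.354%, 10.9% and 12.5%. When libraries were scaled by their totals alone, 3744 of all tested genes were lower and 1219 higher, against 1558 and 1716 with TMM, the median of all tested genes moved to -0.32, and 23 members, 4 heme enzymes among them, were lower beside 19.5% of all tested genes. DESeq2 called 22 members lower, 15 of them red-cell genes, beside 13.4% of all genes it tested.

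**Figure D1:**
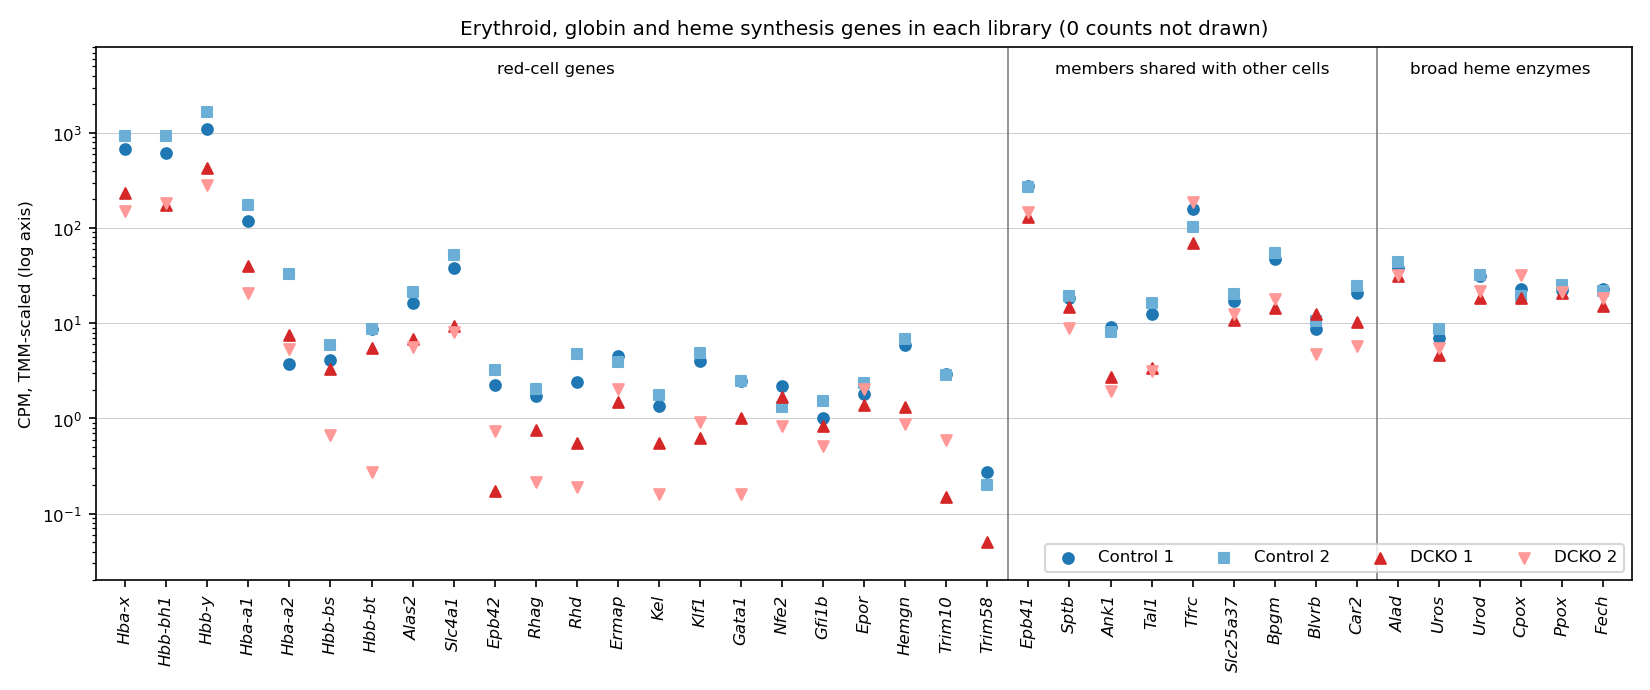
TMM-scaled CPM (vertical log axis) of each of the 37 members (horizontal axis) in the 4 libraries, with circles and squares for Control 1 and 2 and upward and downward triangles for DCKO 1 and 2; a library with 0 counts is not drawn. Both triangles sit below both Control points for 19 of 22 red-cell genes, 7 of 9 shared members and 5 of 6 heme enzymes, against 32.9% of all tested genes.

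**Figure D2:**
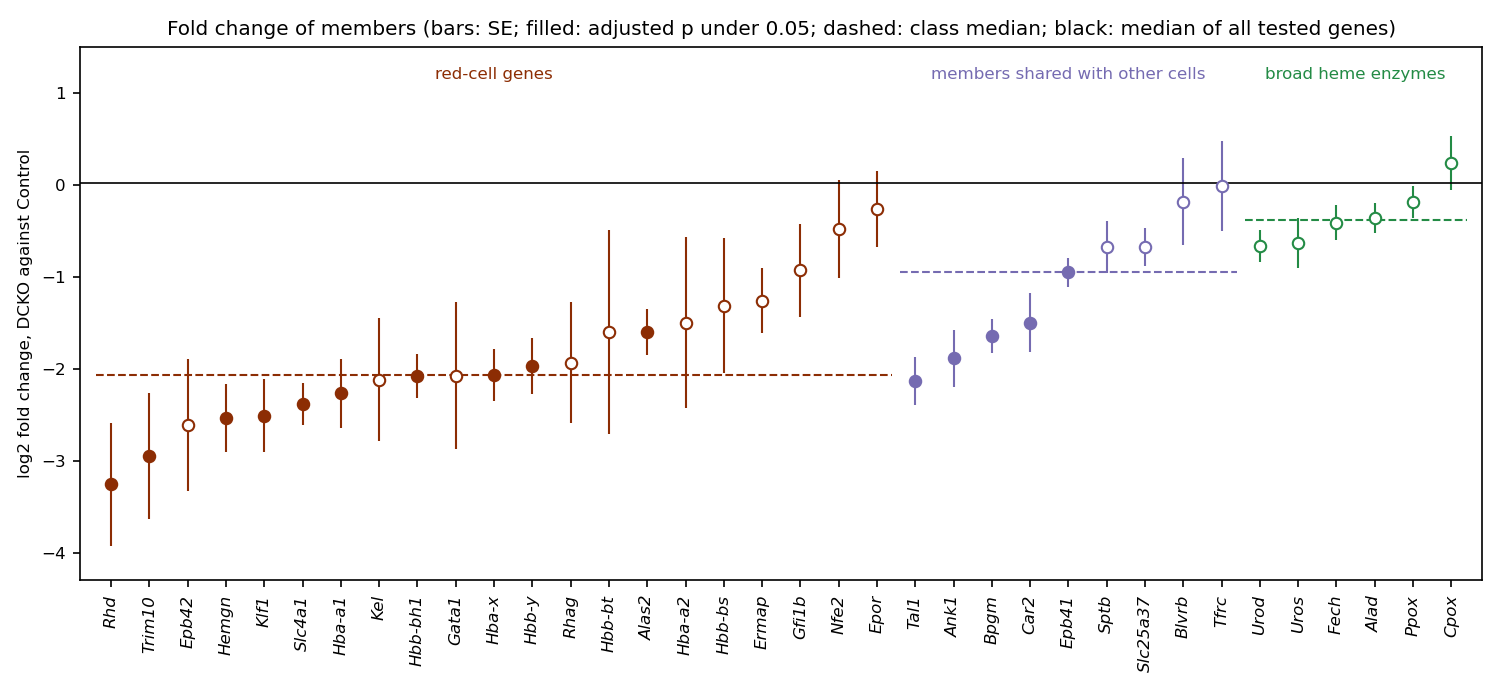
Fitted log2 fold change of DCKO against Control for the 36 tested members, ordered within their class, with bars of 1 SE and filled points at an edgeR adjusted p under 0.05. The dashed class medians lie at -2.07 for red-cell genes, -0.95 for shared members and -0.39 for heme enzymes, and the black line marks the median of all tested genes at 0.03.

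The promoters of the red-cell genes had features in common. Motifs were not used to choose the members, but these genes were listed as red-cell genes. Motifs of red-cell factors in their promoters are therefore not an independent result. GATA factors bind a short motif, searched here as AGATAA, as AGATAG, as TGATAA and as TGATAG on both strands, and Klf1 binds CACCC boxes, searched as CACCC on both strands. RefSeq promoter windows of 300 bases on build GRCm38.p6, from 250 before to 50 after a start, were matched by symbol for 30 of the 37 members, with 37 windows in all. No window was matched for Hbb-bh1, Slc4a1, Nfe2, Fech, Ank1, Slc25a37 and Car2. The 19 red-cell windows came from 19 genes, but the 7 heme enzyme windows came from 5 genes and the 11 shared windows from 6. Among the red-cell windows, those of Hba-a1 and Hba-a2 had equal motif counts, CpG counts and GC content, and each was counted. Percents below are of windows, so genes with several windows weigh more. A GATA motif stood in 17 of 19 red-cell windows (89.5%), 2 of 7 heme enzyme windows (28.6%) and 5 of 11 windows of shared members (45.5%), and in 29.8% of all 32851 windows. The red-cell windows of Gata1 and Hbb-bt held none. The heme enzyme windows with a GATA motif were of Cpox and Uros, and those of shared members were of Blvrb, Epb41, Sptb and Tal1. CACCC was found in 17 of 19 red-cell windows (89.5%) and in 3 of 7 heme enzyme windows (42.9%), against 57.5% of all. Both motifs together were present in 15 of 19 red-cell windows (78.9%) and in 14.9% of all windows. Base composition differed as well: the median number of CpG dinucleotides was 4 in the red-cell windows, with a range of 1 to 8, 17 in the heme enzyme windows and 7 over all windows. Such matches describe letters and do not show that a factor binds there.

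The 250 bases before the start are printed below for the called red-cell members with the most Control counts among embryonic globins, adult globins, the heme entry enzyme and the erythroid regulators, with GATA motifs and CACCC boxes of either strand in capitals. Both windows of the heme enzyme Uros, known from human and mouse to have a broadly used and an erythroid promoter, stand beside them and were chosen after values were seen. Windows of Trim10, Epb41, Tal1 and Bpgm were searched and are not shown. All run 5′ to 3′ along the strand of the gene. They are Hbb-y at chr7:103853208-103853457 on the minus strand, Hba-a1 at chr11:32283422-32283671 on the plus strand, Alas2 at chrX:150547167-150547416 on the plus strand and Hemgn at chr4:46404184-46404433 on the minus strand. The Uros windows, both on the minus strand, are at chr7:133702501-133702750 and chr7:133709296-133709545.
Hbb-y: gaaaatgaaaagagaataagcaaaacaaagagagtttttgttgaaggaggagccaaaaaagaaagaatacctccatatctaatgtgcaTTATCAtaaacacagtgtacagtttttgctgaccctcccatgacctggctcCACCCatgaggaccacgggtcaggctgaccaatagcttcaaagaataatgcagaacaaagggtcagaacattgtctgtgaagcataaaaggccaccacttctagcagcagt
Hba-a1: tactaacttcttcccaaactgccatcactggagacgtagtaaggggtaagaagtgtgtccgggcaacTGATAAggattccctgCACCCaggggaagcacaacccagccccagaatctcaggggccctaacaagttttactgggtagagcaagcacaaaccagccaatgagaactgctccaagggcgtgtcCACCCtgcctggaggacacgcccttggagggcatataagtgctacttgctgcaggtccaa
Alas2: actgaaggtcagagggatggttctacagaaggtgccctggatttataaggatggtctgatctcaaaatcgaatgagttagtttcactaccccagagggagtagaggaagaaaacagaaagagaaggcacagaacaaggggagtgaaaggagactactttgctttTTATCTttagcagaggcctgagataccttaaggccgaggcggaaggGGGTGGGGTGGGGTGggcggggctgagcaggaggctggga
Hemgn: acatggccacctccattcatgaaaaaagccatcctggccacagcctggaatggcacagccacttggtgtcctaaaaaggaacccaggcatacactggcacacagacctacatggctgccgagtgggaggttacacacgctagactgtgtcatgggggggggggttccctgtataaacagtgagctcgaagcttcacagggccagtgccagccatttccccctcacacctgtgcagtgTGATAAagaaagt
Uros, the first window: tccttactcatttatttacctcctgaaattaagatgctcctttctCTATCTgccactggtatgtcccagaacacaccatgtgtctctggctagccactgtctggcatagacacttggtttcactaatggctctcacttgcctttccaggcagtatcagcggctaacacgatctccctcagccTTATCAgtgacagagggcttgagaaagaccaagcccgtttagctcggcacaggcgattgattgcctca
Uros, the second window: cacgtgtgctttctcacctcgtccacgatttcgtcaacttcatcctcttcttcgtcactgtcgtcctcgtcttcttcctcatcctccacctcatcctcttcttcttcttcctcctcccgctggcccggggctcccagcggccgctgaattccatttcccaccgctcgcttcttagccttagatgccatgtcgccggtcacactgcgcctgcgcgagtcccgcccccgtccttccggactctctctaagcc

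In the Hbb-y window the GATA motif begins 162 bases and the CACCC box 111 bases before the start. Hba-a1 has a GATA motif beginning at 183 bases and CACCC boxes beginning at 167 and 60 bases before it. In Alas2 the GATA motif begins 86 bases before the start, and 3 CACCC boxes on the opposite strand follow at 40, 35 and 30 bases. Hemgn holds a GATA motif that begins 13 bases before the start and no CACCC box. The first Uros window holds 2 GATA motifs and 5 CpG dinucleotides, and the second holds no GATA motif and 21 CpG dinucleotides.

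**Figure D3:**
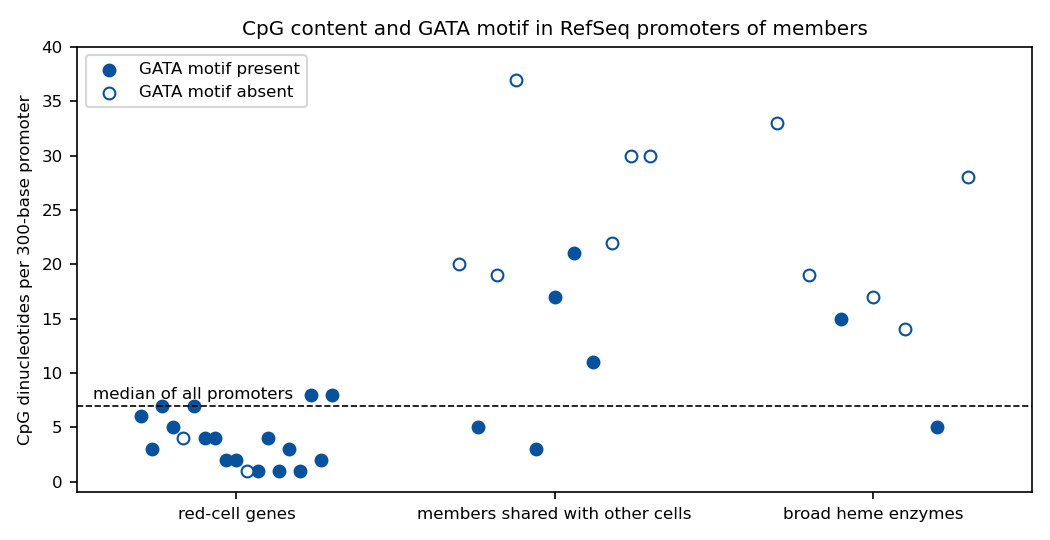
Number of CpG dinucleotides per 300-base RefSeq promoter window (vertical axis) for the 3 classes of members (horizontal axis), 1 point per window, filled where a GATA motif was found; horizontal spread within a class is for legibility. All 19 red-cell windows lie between 1 and 8, and the dashed line marks the median of all windows at 7.

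All 3 embryonic globins were lower in both DCKO libraries, by about the same amount. Hba-x, the embryonic alpha-type chain (chr11:32276400-32278116), was at 679 and 938 CPM in Control 1 and 2 and at 234 and 152 CPM in DCKO 1 and 2. Hbb-bh1, an embryonic beta-type chain (chr7:103841637-103843164), was at 611 and 921 CPM in Control and at 176 and 186 CPM in DCKO. Hbb-y, the other embryonic beta-type chain (chr7:103851749-103853216), was at 1099 and 1669.9 CPM in Control and at 423 and 284 CPM in DCKO. For each of them every DCKO library lay below every Control library, as for 32.9% of all tested genes, and Control 2 lay above Control 1. Hba-x fell by 2.07 on the log2 scale (SE 0.29, edgeR adjusted p = 0.0149), Hbb-bh1 fell by 2.08 (SE 0.24, adjusted p = 0.0104) and Hbb-y fell by 1.97 (SE 0.30, adjusted p = 0.0176). Mean CPM was thus 4.19-fold, 4.23-fold and 3.91-fold lower in DCKO. Without Control 2, Hbb-bh1 still passed (adjusted p = 0.0419), while Hba-x (adjusted p = 0.0609) and Hbb-y (adjusted p = 0.0680) did not.

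Per length, the embryonic beta-type chain Hbb-y was the most abundant globin in every library. Its level was 3248 and 4041 TPM, a count scaled by transcript length and library, in Control and 880.3 and 698 TPM in DCKO. Hbb-bh1 was at 1866 and 2302 TPM in Control and at 379 and 471 TPM in DCKO. Hba-x was at 1588 and 1795 TPM in Control and at 384 and 296 TPM in DCKO, so it lay below Hbb-bh1 in all libraries but DCKO 1, where they were nearly level. Hba-a1, the adult alpha-type chain, came next at 450.1 and 538 TPM in Control and 81.1 and 65.8 TPM in DCKO.

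Of the 4 adult globins, Hba-a1 alone was called lower, beside 8.11% of all tested genes. Hba-a1 (chr11:32283511-32284465) was at 119 and 176 CPM in Control and at 40.3 and 21.0 CPM in DCKO. It fell by 2.27 on the log2 scale (SE 0.37, edgeR adjusted p = 0.0200), with no overlap between the groups, and did not pass without Control 2 (adjusted p = 0.0811). Its neighbour Hba-a2 (chr11:32296489-32297298) was at 3.74 and 32.8 CPM in Control and at 7.57 and 5.36 CPM in DCKO. Control 1 lay below both DCKO libraries, so the groups overlapped, and the log2 fold change of -1.497 (SE 0.93) did not pass in edgeR (adjusted p = 0.297). Without Control 2 it turned to 0.76, and without Control 1 it was -2.35 and passed (adjusted p = 0.0465).

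Hbb-bs and Hbb-bt, the adult beta-type chains, were low throughout. Hbb-bs (chr7:103826534-103828096) was at 4.07 and 5.93 CPM in Control and at 3.32 and 0.677 CPM in DCKO, and Hbb-bt (chr7:103812524-103813996) at 8.77 and 8.68 CPM in Control and at 5.47 and 0.271 CPM in DCKO. Both DCKO libraries were below both Control libraries for each, with DCKO 2 far below DCKO 1. Neither passed, with log2 fold changes of -1.32 (SE 0.73, edgeR adjusted p = 0.254) and -1.60 (SE 1.11, adjusted p = 0.350). Without DCKO 1 they were -2.89 and -5.00 and both passed (adjusted p = 0.0083 and 0.0012). The adult chains are near-identical copies, with 96.9% identity between the transcripts of Hba-a1 and Hba-a2 and 92.5% between those of Hbb-bs and Hbb-bt, so the split of reads within each pair is uncertain.

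The mix of alpha-type globins within a library overlapped between the groups. Hba-x made up 84.7% (exact 95% binomial interval 84.3 to 85.0) and 81.8% (81.5 to 82.1) of alpha-type globin counts in Control, and 83.0% (82.3 to 83.7) and 85.2% (84.4 to 86.1) in DCKO. The difference of group means was 0.887 percentage points, with an exact permutation p of 0.667. From TPM the share was 77.4% and 73.8% in the Control libraries, below the 79.2% and 78.3% of the DCKO libraries. On the beta side the DCKO libraries straddled the Controls. Hbb-bh1 was 35.8% and 35.5% of Hbb-bh1 plus Hbb-y in Control, 29.4% (28.8 to 29.99) in DCKO 1 and 39.5% (38.8 to 40.3) in DCKO 2. The adult chains were 0.745% and 0.560% of beta-type counts in Control, 1.45% in DCKO 1 and 0.201% in DCKO 2. Intervals cover counting error only, and the 2 DCKO libraries differed from each other by more than it.

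**Figure D4:**
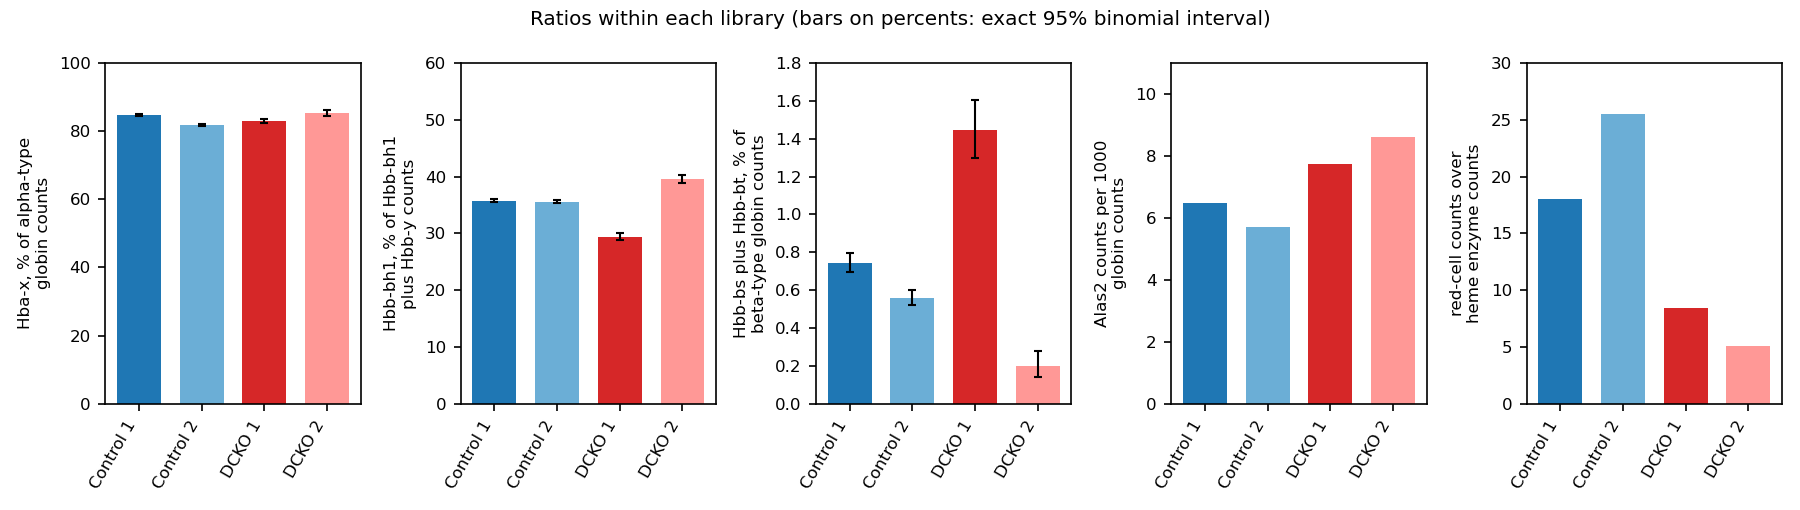
Ratios computed within each library (horizontal axes), from left to right the percent of Hba-x among alpha-type globin counts, of Hbb-bh1 among Hbb-bh1 plus Hbb-y counts, of adult chains among beta-type counts, Alas2 counts per 1000 globin counts, and red-cell counts for each heme enzyme count; error bars on the percents are exact 95% binomial intervals. The first 3 overlap between the groups, Alas2 per globin count is higher in both DCKO libraries, and red-cell counts per heme enzyme count fall from 18.04 and 25.5 in Control to 8.44 and 5.12 in DCKO.

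Genes beside the globin clusters did not all move the way the globins did. The alpha-type genes lie within chr11:32276400-32297298 and the beta-type genes within chr7:103812524-103853216. Next to the alpha cluster, Nprl3, whose introns hold the enhancers of the alpha globins, was at 11.3 and 11.6 CPM in Control and at 11.6 and 13.6 CPM in DCKO. Its log2 fold change was 0.14 (SE 0.21, edgeR adjusted p = 0.673). Mpg had a value of 0.07, Rhbdf1 rose by 2.098 (adjusted p = 0.0081) and Sh3pxd2b, on the other side, fell by 0.76 (adjusted p = 0.0326). Hbq1b, a globin-like gene inside the cluster, held 25 counts in each Control library and 2 and 4 in the DCKO libraries. The olfactory receptor genes on both sides of the beta cluster held at most 1 count in a library.

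Alas2, the enzyme that red cells use for the entry step of heme synthesis (chrX:150547375-150570638), was lower in DCKO. It was at 16.4 and 21.4 CPM in Control and at 6.90 and 5.60 CPM in DCKO, and the groups did not overlap. Alas2 fell by 1.60 on the log2 scale (SE 0.25, edgeR adjusted p = 0.0180), but with Control 1 or Control 2 left out its adjusted p was 0.0772 or 0.127. Measured against the globins, both DCKO libraries lay above the Controls: there were 6.48 and 5.71 Alas2 counts per 1000 globin counts in Control and 7.75 and 8.62 in DCKO. Exons of Alas2 overlap Apex2 and Mir3620 on the opposite strand, and whether counting used strand is not stated.

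None of the 6 enzymes that follow passed the edgeR test, 1 of them, Urod, had an unadjusted p under 0.05, DESeq2 called 1 lower and limma-voom called 0. Urod, which decarboxylates uroporphyrinogen, was closest, at 31.6 and 32.3 CPM in Control and 18.4 and 21.9 CPM in DCKO. Its log2 fold change was -0.67 (SE 0.18), with an adjusted p of 0.0560 in edgeR and 0.0140 in DESeq2, and 0.0291 in edgeR without DCKO 2. Uros, which closes the porphyrin ring, was at 7.04 and 8.70 CPM in Control and at 4.67 and 5.49 CPM in DCKO, a log2 fold change of -0.63 (with SE 0.27, adjusted p = 0.160). For both enzymes the groups did not overlap.

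Alad, which joins the products of the entry step, was at 37.9 and 43.7 CPM in Control and at 31.3 and 32.3 CPM in DCKO, a log2 fold change of -0.36 (SE 0.16, edgeR adjusted p = 0.175). Fech, which inserts iron in the last step, was at 22.7 and 22.0 CPM in Control and at 15.1 and 18.5 CPM in DCKO, a value of -0.41 (SE 0.19, adjusted p = 0.189). Ppox, the oxidase before it, was at 22.4 and 25.4 CPM against 20.7 and 21.2 CPM, a value of -0.19 (SE 0.17, adjusted p = 0.481). In these 3 enzymes the DCKO libraries were below the Controls by small steps. Cpox, the mitochondrial oxidase that feeds Ppox, overlapped between groups at 23.2 and 19.6 CPM in Control and 18.5 and 31.9 CPM in DCKO, with a log2 fold change of 0.24 (with SE 0.29, adjusted p = 0.602). The sign of Cpox turned with library totals (-0.11), with TPM and without DCKO 2 (-0.21). The exons of Cpox and Ppox overlap Gpr15 and B4galt3 on the opposite strand.

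Other genes of heme handling included calls in both directions. Of 18 listed genes for the remaining synthesis steps, transport and breakdown, 2 were lower and 1 was higher. Over all tested genes, 8.11% were lower and 8.93% were higher, so these counts do not set the list apart. The median log2 fold change of the list was -0.18. Abcb10, a mitochondrial transporter needed for heme synthesis in red cells, was at 38.9 and 40.2 CPM in Control and at 13.9 and 17.7 CPM in DCKO, and fell by 1.32 (edgeR adjusted p = 0.0159). Eif2ak1, the kinase that slows translation when heme is short, fell by 0.66 (adjusted p = 0.0402). Hmox1, which breaks heme down, was at 11.7 and 11.9 CPM in Control and at 62.7 and 51.5 CPM in DCKO, and rose by 2.27 (SE 0.18, adjusted p = 0.0065). Alas1, the entry enzyme of other tissues, had a value of -0.60 (edgeR adjusted p = 0.0973). Over all tested genes, fewer were called when either Control library was left out. Without either Control library, 0 genes of this list were lower and Hmox1 remained higher. Iron handling genes were spread around 0, with a median of 0.00 over 18 genes and 1 lower, beside 8.11% of all tested genes. The gene called was that of the iron-sulfur cluster protein Glrx5, which fell by 0.69 (edgeR adjusted p = 0.0412).

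All 6 red-cell membrane and blood group genes had both DCKO libraries below both Controls, as did 32.9% of all tested genes. The test called 2 of them lower, beside 8.11% of all tested genes. Slc4a1, the chloride-bicarbonate exchanger of red cells (chr11:102348824-102366203), was at 38.2 and 52.5 CPM in Control and at 9.30 and 8.15 CPM in DCKO. It fell by 2.38 on the log2 scale (SE 0.23, edgeR adjusted p = 0.0079), and passed without any 1 library, at adjusted p-values from 0.0031 to 0.0460. Rhd, a Rhesus antigen (chr4:134864536-134896172), was at 2.44 and 4.72 CPM in Control and at 0.550 and 0.189 CPM, or only 22 and 7 counts, in DCKO. It fell by 3.26 (SE 0.67, adjusted p = 0.0316), which no longer passed without Control 1 (adjusted p = 0.0802) or Control 2 (adjusted p = 0.155).

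The other 4 membrane genes were weakly expressed, as was Rhd. Epb42, which links the exchanger to the skeleton, was at 2.27 and 3.26 CPM in Control and at 0.175 and 0.731 CPM in DCKO, with a log2 fold change of -2.61 (SE 0.72, edgeR adjusted p = 0.0613). Rhag, the Rhesus-associated channel, was at 1.71 and 2.02 CPM against 0.750 and 0.217 CPM, a value of -1.93 (adjusted p = 0.0976). DCKO 1 was the lowest library for Epb42 and DCKO 2 for Rhag. Kel, the Kell blood group protease, was at 1.36 and 1.78 CPM against 0.550 and 0.162 CPM, a value of -2.12 (adjusted p = 0.0831). Ermap, the Scianna blood group protein, was at 4.50 and 3.89 CPM against 1.47 and 2.03 CPM, a value of -1.26 (adjusted p = 0.0644). None of these 4 overlapped between the groups, and each was lower in DESeq2, which called 13.4% of all genes it tested lower. Together the 6 membrane genes held 20.01 and 18.2 counts per 1000 globin counts in Control and 14.4 and 17.7 in DCKO, below both Controls (exact permutation p = 0.3333, the smallest possible).

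Of the 6 erythroid regulators, Klf1 and Hemgn were called lower, beside 8.11% of all tested genes. Klf1, the zinc finger activator of red-cell genes (chr8:84901928-84905291), was at 3.99 and 4.82 CPM in Control and at 0.625 and 0.920 CPM in DCKO, and fell by 2.51 (SE 0.40, edgeR adjusted p = 0.0187). Hemgn, a nuclear protein of blood precursors (chr4:46393989-46413506), was at 5.96 and 6.84 CPM in Control and at 1.32 and 0.866 CPM in DCKO, and fell by 2.54 (SE 0.37, adjusted p = 0.0162). Both genes had no overlap between the groups. Without Control 1 the adjusted p was 0.0917 for Klf1 and 0.0799 for Hemgn, and without Control 2 it was 0.118 and 0.0975.

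Gata1, the master factor of red cells and megakaryocytes, was at 2.48 and 2.47 CPM in Control and at 1.00 and 0.162 CPM in DCKO, a log2 fold change of -2.08 (SE 0.80) that did not pass in edgeR (adjusted p = 0.129). The DCKO libraries differed from each other by more than the Controls did, with 40 and 6 counts, and Gata1 passed without DCKO 1 (adjusted p = 0.0055). Gfi1b, a repressor in the same lineages, was at 1.02 and 1.54 CPM in Control and at 0.825 and 0.514 CPM in DCKO, a value of -0.93 (adjusted p = 0.243). Nfe2, a subunit of the factor that acts at the beta globin control region, was at 2.22 and 1.32 CPM against 1.70 and 0.839 CPM, a value of -0.48 (adjusted p = 0.558). Epor, the erythropoietin receptor, was at 1.79 and 2.35 CPM against 1.40 and 2.06 CPM, a value of -0.26 (adjusted p = 0.689). Nfe2 and Epor overlapped between the groups. Summed, the 6 regulators held 6.91 and 5.16 counts per 1000 globin counts in Control and 7.72 and 8.25 in DCKO, above both Controls (exact permutation p = 0.3333). The members of this sum differed in direction. Per 1000 globin counts, Nfe2, Gfi1b and Epor, none of them called, were above both Controls in both DCKO libraries, Epor for example at 0.708 and 0.627 in Control and at 1.57 and 3.17 in DCKO. Hemgn was below both Controls, at 2.36 and 1.82 against 1.49 and 1.33, and Klf1, at 1.58 and 1.28 against 0.702 and 1.42, overlapped between the groups, as did Gata1.

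The ubiquitin ligases Trim10 and Trim58, which red-cell precursors make late in their maturation, were near the floor in DCKO. Trim10 (chr17:36869574-36877833) was at 2.91 and 2.85 CPM in Control and at 0.150 and 0.595 CPM in DCKO, and fell by 2.95 (SE 0.68, edgeR adjusted p = 0.0418). With Control 1 left out its adjusted p was 0.161, and with Control 2 left out 0.152. Trim58 held 17 counts in Control 1, 10 in Control 2, 2 in DCKO 1 and 0 in DCKO 2, too few for the test. Scaled to the library sizes, its level in Control was 9.18 times that in DCKO, with a 95% counting interval of 2.31 to 79.6.

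Members shared with other cells were split. Tal1, a factor of blood precursors that endothelial cells and some neural tube interneurons also use (chr4:115056426-115071755), was at 12.4 and 16.3 CPM in Control and at 3.37 and 3.17 CPM in DCKO. It fell by 2.13 (SE 0.26, edgeR adjusted p = 0.0117). Ank1, the ankyrin of the red-cell skeleton that muscle and neurons also make (chr8:22974844-23150497), was at 9.18 and 8.14 CPM against 2.72 and 1.95 CPM and fell by 1.89 (SE 0.31, adjusted p = 0.0200). In both genes the DCKO libraries lay close together and well below the Controls. Epb41, a broadly made skeleton protein (chr4:131923413-132075321), was at 276 and 268 CPM against 132 and 149 CPM and fell by 0.95 (SE 0.16, adjusted p = 0.0199). Sptb, the beta spectrin of red cells and of muscle and brain, was at 18.5 and 19.2 CPM against 14.7 and 8.90 CPM, with a log2 fold change of -0.68 (with SE 0.28, adjusted p = 0.155). Exons of Epb41, Sptb and Ank1 overlap genes on the opposite strand.

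Bpgm, which makes the bisphosphoglycerate that lowers the oxygen affinity of hemoglobin (chr6:34476207-34505613), was at 47.5 and 54.1 CPM in Control and at 14.6 and 17.97 CPM in DCKO, and fell by 1.64 (SE 0.19, edgeR adjusted p = 0.0103). Car2, a carbonic anhydrase (chr3:14886273-14900770), was at 20.6 and 24.9 CPM against 10.3 and 5.79 CPM and fell by 1.499 (SE 0.32, adjusted p = 0.0353). Neither overlapped between the groups. Slc25a37, the mitochondrial iron importer, was at 17.1 and 20.3 CPM against 10.9 and 12.5 CPM, a log2 fold change of -0.67 (with SE 0.21, adjusted p = 0.0796). Tfrc, the transferrin receptor that dividing cells use widely, was at 161 and 102 CPM in Control and at 70.0 and 190.1 CPM in DCKO, a value of -0.02 (SE 0.49, adjusted p = 0.986). Blvrb, a biliverdin reductase, was at 8.78 and 10.6 CPM against 12.4 and 4.71 CPM, a value of -0.18 (SE 0.47, adjusted p = 0.814). Tfrc and Blvrb had their highest and lowest levels among the DCKO libraries. None of the 5 called genes, Tal1, Ank1, Epb41, Bpgm and Car2, passed without Control 1 or without Control 2, where adjusted p-values were between 0.0537 and 0.169.

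Among the red-cell genes the values differed between embryos of the same group. Measured against the Control mean, the median log2 difference over the red-cell genes was -1.61 in DCKO 1 and -2.28 in DCKO 2. The median of DCKO 2 leaves out Trim58, which had 0 counts there. Of the 22, 16 were lower in DCKO 2 than in DCKO 1, and 6 were lower in Control 2 than in Control 1. For the heme enzymes the medians were -0.47 and -0.31. Of these 6, 0 were lower in DCKO 2 than in DCKO 1, and 2 were lower in Control 2 than in Control 1.

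A further erythroid list outside the 37 had calls in the lower direction only by edgeR. Of its 23 tested genes, 4 were lower and 0 higher, beside 8.11% lower and 8.93% higher of all tested genes. At an unadjusted p under 0.05, 7 were lower and 2 higher. DESeq2 called 5 lower and 1 higher, and limma-voom called 4 lower and 0 higher. The median log2 fold change of the 23 genes was -0.42. Myb, a factor of blood precursors and of other dividing cells, was at 11.4 and 11.5 CPM in Control and at 2.07 and 1.79 CPM in DCKO, and fell by 2.57 (adjusted p = 0.0086). Add2, an adducin shared with neurons, fell by 1.91 (adjusted p = 0.0480), and Mns1 fell by 1.23 (adjusted p = 0.0142). Hbq1a, Hbb-bh2 and Car1 were at 0 in every library. Over all tested genes, fewer were called without either Control library and more without either DCKO library. None of the 4 passed without Control 1 or without Control 2, and without DCKO 2 this list had 4 genes lower and 3 higher.

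No marker of vessel cells, platelets or macrophages was called lower over the 4 libraries, where 8.11% of all tested genes were lower and 8.93% higher. Of 14 endothelial markers, 9 were higher and 0 lower, with 0 lower also at an unadjusted p under 0.05, in DESeq2 and in limma-voom, and with a median log2 fold change of 1.496. Their summed level was 222 and 211 CPM in Control against 843 and 519 CPM in DCKO. Pecam1, for example, went from 14.5 and 16.1 CPM to 102 and 50.6 CPM, a rise of 2.32 (edgeR adjusted p = 0.0176). Tek rose by 1.58, Sox17 by 2.29 and Kdr by 2.04 (adjusted p = 0.0109, 0.0157 and 0.0171). Megakaryocyte and platelet markers had 1 of 11 higher, Vwf, which endothelial cells also make and which rose by 2.495 (adjusted p = 0.0192), and summed to 19.6 and 20.3 CPM in Control and 112 and 37.2 CPM in DCKO. Macrophage markers had 0 of 14 called by edgeR or limma-voom, 1 at an unadjusted p under 0.05 and 1 higher in DESeq2, with sums of 38.9 and 54.4 CPM in Control and 127 and 39.0 CPM in DCKO; Mrc1 had the smallest p (log2 fold change 1.57, adjusted p = 0.0973). None of the markers in these 3 lists was at 0 in all libraries. These counts moved with single libraries, and so did the shares of all tested genes called. Those shares fell without either Control library and rose without either DCKO library. Without Control 1 or without Control 2, 0 markers of the 3 lists passed in either direction. Without DCKO 2, 11 endothelial, 6 megakaryocyte and platelet and 7 macrophage markers were higher and 1 endothelial marker was lower. Without DCKO 1, 12 endothelial, 1 megakaryocyte and platelet and 0 macrophage markers were higher and 1 macrophage marker was lower.

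Markers of the cell types of the head itself also differed between the groups. The counts below stand beside 8.11% lower and 8.93% higher of all tested genes over the 4 libraries. Neural progenitor markers had 7 of 10 lower and 0 higher. Among them Sox3 fell by 2.91, Nes by 1.93, Sox1 by 2.15 and Sox2 by 0.89 (edgeR adjusted p = 0.0060, 0.0081, 0.0081 and 0.0208). At an unadjusted p under 0.05, 8 were lower and 1, Vim, was higher. Vim was at 862 and 995 CPM in Control and at 1710 and 1301 CPM in DCKO (log2 fold change 0.70, edgeR adjusted p = 0.0702). Sums of the list, Vim included, were 3275 and 3687 CPM in Control and 2669 and 2104 CPM in DCKO. Neuron markers had 3 of 10 lower, Elavl4 by 1.73, Dcx by 1.35 and Map2 by 1.93 (adjusted p = 0.0129, 0.0366 and 0.0395), with sums of 1017 and 1284 CPM in Control and 655 and 301 CPM in DCKO. Cranial mesenchyme markers had 12 of 14 higher, among them Pdgfrb, Prrx2, Postn and Prrx1, with sums of 693 and 726 CPM in Control and 4730.3 and 2204 CPM in DCKO. Surface ectoderm markers had 11 of 13 higher, among them Trp63, Krt18, Cldn4 and Krt8, with sums of 17.3 and 30.1 CPM in Control and 338 and 466 CPM in DCKO. Among 9 tested RNAs without poly(A) tails, Rny1 and Rny3 were lower and Terc was higher. Here too, the shares of all tested genes called fell without either Control library and rose without either DCKO library. Without Control 1 or without Control 2, respectively, 3 and 3 neural progenitor markers and 0 and 0 neuron markers were lower, and 2 and 1 cranial mesenchyme markers and 9 and 7 surface ectoderm markers were higher. Without DCKO 1 or without DCKO 2, 8 and 6 neuron markers were lower. The part of these shifts, and of the ribosomal RNA share, in the fall of the red-cell genes was not tested.

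**Figure D5:**
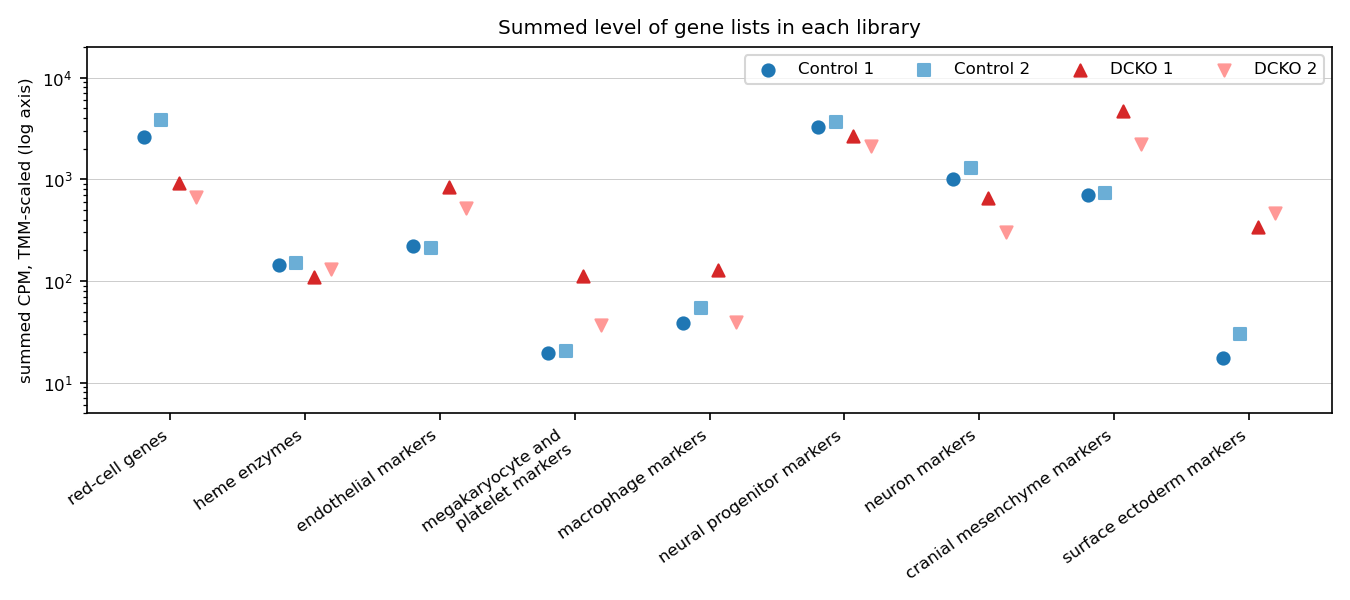
Summed TMM-scaled CPM (vertical log axis) of the red-cell genes, the heme enzymes and 7 marker lists (horizontal axis) in each of the 4 libraries, with circles and squares for Control 1 and 2 and triangles for DCKO 1 and 2. The sums of the red-cell genes, the heme enzymes and the neural progenitor and neuron markers are lower in both DCKO libraries, those of the endothelial, megakaryocyte and platelet, cranial mesenchyme and surface ectoderm markers are higher, and those of the macrophage markers overlap.

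The authors' deposited table of differential expression holds 28 of the 37 members, 13 of them red-cell genes. At a false discovery rate under 0.05 in the authors' deposited table, 9 red-cell genes and 5 shared members were lower, and 0 heme enzymes passed in either direction. The share of all its 12574 genes called lower was not counted here, so these counts have no background. The table compares the same 2 groups of embryos and is not independent of the edgeR fit. The sign matched the edgeR fit for 27 of the 28, the exception being Tfrc with 0.05 in the authors' deposited table. The authors' deposited table gives Hba-x a log2 fold change of -2.01, Slc4a1 one of -2.33 and Klf1 one of -2.46.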

How the data were processed

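RNA of microdissected cranial neural tubes was sequenced from 4 embryos, 2 per group, with a stranded kit, per the labels' protocols. The authors deposited read counts per Ensembl gene with no scaling, length-scaled abundances (TPM) per gene, and a comparison table holding log2 ratios beside each p-value and FDR. TopHat2 2.1.1, StringTie, edgeR 3.16.5, limma 3.30.13, R 3.3.2, mm10 and GRCm38 are named, per the submitters' processing notes, without roles. How reads were counted is not given in the sources used here.

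Symbols and coordinates came from GENCODE M21 (GRCm38), matched for 54409 of 54532 gene IDs. The members, their classes and the lists were chosen with earlier results of these data known. Members past the threshold, heme enzymes and regulators were named with values, and up to 4 called genes of each other list by smallest p, or the gene with the smallest p where none was called. Some genes of these lists are not reported here by name. Gene neighbours, Alas1 and the Uros promoter were added after values were seen.

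Counts were tested with edgeR 4.0.16 in R 4.3.3 (filterByExpr, minimum count 10 and total 15; TMM; quasi-likelihood test on group alone with 2 residual degrees of freedom; two-sided; Benjamini-Hochberg over 19207 genes; threshold 0.05), checked on simulated data. Standard errors follow from each fold change and its F value. Depth was 55137810 counts for Control 1, 45190611 for Control 2, 45102704 for DCKO 1 and 41798361 for DCKO 2. Ratios within libraries were compared by two-sided exact permutation tests. Alternatives were other scalings, no filter, DESeq2 1.42.0, limma-voom (limma 3.58.1), limma-trend on log2 of the authors' TPM plus 1 or 0.1, the members and ribosomal RNA cluster left out of the totals, each library left out, and a replicate block. A fit without 1 library assumes that the lone sample varies like the other group.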

Additional observations from a re-analysis of the deposited data

How the results depend on the processing

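With upper quartile or DESeq2 size factors in edgeR, no filter, limma-voom, or the members and ribosomal RNA cluster left out of the totals, all 15 called members remained and 15 to 16 members were lower, beside 4.96% to 9.01% of all genes tested. On log2(TPM + 1) and log2(TPM + 0.1) with a mean TPM of at least 1, 18 and 16 were lower, beside 11.5% and 10.8% of all genes tested, with Ank1 lost in the latter. With DESeq2 22 were lower, with library totals 23, and with log2(TPM + 1) without a filter on low values 0, although 25 had an unadjusted p under 0.05 there. In that last setting 0 red-cell genes were lower as well, and 0 of all genes were higher and 0 lower, with 6446 at an unadjusted p under 0.05. With the globins left out of the class, 6 red-cell genes were lower. Heme enzymes lower were 4 with library totals and 1 with DESeq2. Over all genes, 3744 were lower with library totals and 2678 with DESeq2, and on log2(TPM + 1) and log2(TPM + 0.1) 1700 and 1602 were lower and 1007 and 958 higher. The median log2 fold change of red-cell genes minus that of heme enzymes was -1.68, and -1.06 and -0.83 on log2(TPM + 1) with and without the filter, which shrinks low genes by its construction. From TPM the difference in the Hba-x share of alpha-type globins was 3.15 percentage points and that in the ratio of red-cell genes to heme enzymes -38.3, against 0.887 and -14.98 from counts; the cause was not tested.

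Leaving out each library, members lower ranged from 2 to 23, red-cell genes lower from 2 to 16 and heme enzymes lower from 0 to 1, with members higher and heme enzymes higher at 0. All genes higher ranged from 155 to 2619 and lower from 72 to 2565, and the difference of the medians from -2.04 to -1.14. The Hba-x share difference ranged from -0.541 to 2.32 percentage points, the adult beta-type share from -0.452 to 0.793, the Hbb-bh1 share from -6.24 to 3.89, the ratio of red-cell genes to heme enzymes from -18.7 to -11.3 and the share of all members in the totals from -0.398 to -0.267. Signs turned for Hba-a2 without Control 2 (0.76, with leave-one-out values from -2.35), for Cpox with library totals (-0.11), log2(TPM + 1) with or without the filter (-0.043), log2(TPM + 0.1) (-0.051) and without DCKO 2 (-0.21, with values up to 0.57 without DCKO 1), for Tfrc with upper quartiles (0.027), without Control 1 (0.34) and without DCKO 1 (0.53, with values down to -0.91 without DCKO 2), and for Blvrb without DCKO 2 (0.35, with -1.05 without DCKO 1).

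Replicate numbers are shared between the groups, and the labels do not state that they pair the samples. Differences between replicates 1 and 2 correlated at -0.03 across 19207 genes. A value this near 0 shows no common replicate effect but cannot tell whether samples were paired. With a replicate block, 12 members were lower, 8 of them red-cell genes, and 1002 of all genes were higher and 776 lower. Rhd, Trim10 and Car2 no longer passed with the block. Trim58 had too few counts for the test.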
